A study of Mus musculus with 12 samples.

Results

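The genes described here mark lymphocytes and natural killer (NK) cells: 35 genes of T cell, B cell and NK cell identity, signalling and killing, chosen by name and read as log2 values from 12 arrays. Of these, 33 had a probe set annotated with their symbol alone and are described, out of 19938 genes in all. Lck and Il1rl1 were not analysed here. Each of the 33 genes had 1 such probe set, so the rule of taking the brightest was never needed.

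The arrays fall into 4 groups of 3 biological replicates. Mouse embryonic stem (ES) cells, embryonic fibroblasts in primary culture (PMEF) and 3T3-L1 cells were each turned into adipocytes in vitro. 3T3-L1 is an immortal line of mouse embryo fibroblasts that becomes fat cells on hormonal stimulation. The fourth group, eWAT, was fat tissue isolated from healthy mice of wild-type genotype, and the letters usually stand for epididymal white fat. The sources used here do not give the culture conditions, the age, sex or strain of the mice, the origin of the ES cells and fibroblasts, or whether a tissue replicate is 1 animal. The p-values measure only the spread between these arrays.

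T cells recognise antigen through the T cell receptor, whose CD3 and zeta chains pass the signal on to kinases and adaptors inside the cell. NK cells carry germline-encoded receptors in its place and kill with granules that hold perforin and granzymes. B cells signal through the CD79 chains of the B cell receptor. Fat tissue houses all of these cells beside its macrophages, and their numbers change with feeding and obesity.

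Of the 33 genes, 23 were lower in ES adipocytes than in eWAT, 19 in PMEF adipocytes and 24 in 3T3-L1 adipocytes. Of all genes 20.9%, 21.6% and 22.5% were lower in these comparisons. One of the 33 was higher in ES, 0 in PMEF and 1 in 3T3-L1 adipocytes, while 28.8%, 24.7% and 30.8% of all genes were. At least 2-fold lower were 12 in ES, 11 in PMEF and 11 in 3T3-L1 adipocytes, against 5.86%, 5.46% and 8.49% of all genes. All arrays of the model were below all eWAT arrays for 23 genes in ES, 21 in PMEF and 25 in 3T3-L1 adipocytes, as they were for 24.3%, 23.7% and 24.9% of all genes. A gene counts as lower or higher when its adjusted p (Benjamini-Hochberg over the 19938 genes of 1 limma fit to the 12 arrays) is under 0.05, and rose and fell are used of such genes alone. The median difference of the 33 genes was -0.55 in ES, -0.47 in PMEF and -0.49 in 3T3-L1 adipocytes on the log2 scale, while that of all genes was 0.04, 0.05 and 0.05. The 3 comparisons share the eWAT arrays. In ES, PMEF and 3T3-L1 adipocytes the median was -1.54, -1.49 and -1.35 for NK receptors, -1.45, -1.29 and -1.48 for granule genes, -0.60, -0.47 and -0.61 for the T cell receptor and coreceptors, and -0.32, -0.03 and -0.15 for B cell genes. In tissue and cultures alike, fewer cells of a type and less RNA per cell cannot be told apart in bulk RNA.

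Promoter windows are printed for the genes with the largest difference among granule and NK receptor genes, Nkg7 and Ncr1, and for the neighbouring Cd3e, Cd3g and Cd3d, which did not move alike. Of these, Cd3d read low in eWAT too, as given below. They come from RefSeq, build GRCm38.p6, and run from 250 bases before to 50 bases after the annotated start of the gene, 5′ to 3′ on its own strand. The Nkg7 window is chr7:43436888-43437187 (plus strand), the Ncr1 window chr7:4337465-4337764 (plus), the Cd3e window chr9:45009562-45009861 (minus), the Cd3g window chr9:44980382-44980681 (minus) and the Cd3d window chr9:44981536-44981835 (plus). Capitals mark exact matches, on either strand, to 3 short motifs of factor families that act in lymphocytes. They are AGGTGT for T-box factors such as Tbx21 and Eomes (ACACCT on the other strand), TGTGGT for Runx factors (ACCACA) and AGGAAG for ETS factors (CTTCCT). No 2 matches overlap in these windows.
Nkg7: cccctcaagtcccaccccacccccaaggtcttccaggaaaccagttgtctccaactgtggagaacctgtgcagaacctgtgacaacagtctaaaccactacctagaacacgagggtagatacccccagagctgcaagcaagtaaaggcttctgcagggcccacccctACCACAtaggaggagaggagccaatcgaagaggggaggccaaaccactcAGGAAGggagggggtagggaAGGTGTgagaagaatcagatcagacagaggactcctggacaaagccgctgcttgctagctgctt
Ncr1: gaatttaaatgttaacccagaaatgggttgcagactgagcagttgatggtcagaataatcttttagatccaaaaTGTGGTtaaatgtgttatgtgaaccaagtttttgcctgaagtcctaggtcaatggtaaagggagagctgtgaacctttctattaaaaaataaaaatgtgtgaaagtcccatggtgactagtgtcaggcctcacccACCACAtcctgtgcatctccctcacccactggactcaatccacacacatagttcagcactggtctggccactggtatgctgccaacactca
Cd3e: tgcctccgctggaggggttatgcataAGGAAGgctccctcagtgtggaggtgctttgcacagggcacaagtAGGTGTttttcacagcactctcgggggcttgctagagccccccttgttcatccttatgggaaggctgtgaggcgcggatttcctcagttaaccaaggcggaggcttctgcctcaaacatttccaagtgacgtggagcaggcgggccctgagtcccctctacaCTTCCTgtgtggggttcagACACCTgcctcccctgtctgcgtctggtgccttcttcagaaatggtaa
Cd3g: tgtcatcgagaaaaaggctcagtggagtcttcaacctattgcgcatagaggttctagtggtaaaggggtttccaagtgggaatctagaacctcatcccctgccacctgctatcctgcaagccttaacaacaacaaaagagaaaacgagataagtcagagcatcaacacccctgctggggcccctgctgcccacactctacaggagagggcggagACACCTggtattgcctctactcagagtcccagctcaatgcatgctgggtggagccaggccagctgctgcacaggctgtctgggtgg
Cd3d: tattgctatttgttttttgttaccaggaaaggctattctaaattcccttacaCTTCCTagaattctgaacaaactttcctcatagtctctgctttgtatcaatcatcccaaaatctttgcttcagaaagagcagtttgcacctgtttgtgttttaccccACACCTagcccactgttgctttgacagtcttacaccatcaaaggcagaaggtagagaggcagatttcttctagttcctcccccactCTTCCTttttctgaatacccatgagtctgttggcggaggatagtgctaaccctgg

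The Nkg7 window held 1 match to each motif, with the T-box match at base 237, the ETS match at base 217 and the Runx match at base 168. The Ncr1 window held 2 Runx matches, at bases 75 and 210, and none of the other motifs. Ncr1 has 2 starts in the RefSeq table, of which 1 is shown. Cd3e had 2 T-box and 2 ETS matches, Cd3d 1 T-box and 2 ETS matches, and Cd3g 1 T-box match. Cd3g and Cd3d are transcribed away from each other, and 854 bases lie between their windows. Of 32 windows found for 26 of the 35 listed genes, 11 held the T-box motif, 12 the Runx motif and 17 the ETS motif (34.4%, 37.5% and 53.1%). Of all 32851 windows of this length 13.7%, 16.8% and 35.4% held them. A match describes the letters alone and was not tested for binding.

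Nkg7, a membrane protein of the killing granules of NK cells and cytotoxic T cells, differed most from eWAT in all 3 models. Its log2 intensity was 4.61, 4.41 and 4.53 in ES adipocytes, 4.45, 4.59 and 4.68 in PMEF adipocytes and 4.43, 4.38 and 4.50 in 3T3-L1 adipocytes, against 7.32, 7.69 and 7.62 in eWAT. Every tissue array lay far above every culture array, and the cultures overlapped each other. The log2 difference from eWAT was -3.03 ± 0.10 in ES, -2.97 ± 0.10 in PMEF and -3.10 ± 0.10 in 3T3-L1 adipocytes (SE, n = 3 arrays per group, limma adjusted p = 4.43e-11, 3.77e-11 and 1.4e-11), or 8.15-fold, 7.82-fold and 8.59-fold lower.

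The granzymes are the proteases that killer cells release into their targets. Gzma was at 3.99, 3.72 and 4.01 in ES adipocytes, 3.81, 3.87 and 3.94 in PMEF adipocytes and 3.57, 3.49 and 3.71 in 3T3-L1 adipocytes, against 5.21, 5.16 and 5.19 in eWAT. It fell in all 3 models, with differences of -1.28 ± 0.09 in ES, -1.31 ± 0.09 in PMEF and -1.60 ± 0.09 in 3T3-L1 adipocytes (limma adjusted p = 4.69e-08, 3.25e-08 and 2.93e-09). The tissue arrays were close together for Gzma and widely spread for Gzmb. The log2 intensity of Gzmb was 3.89, 4.09 and 3.85 in ES adipocytes, 4.25, 4.36 and 4.26 in PMEF adipocytes and 4.15, 4.34 and 4.14 in 3T3-L1 adipocytes, against 4.95, 6.04 and 5.71 in eWAT. All tissue arrays were above all culture arrays, and eWAT array 1 was the lowest of the tissue. Gzmb was at -1.62 ± 0.20 in ES, -1.27 ± 0.20 in PMEF and -1.36 ± 0.20 in 3T3-L1 adipocytes (limma adjusted p = 1.17e-05, 0.000116 and 4.53e-05). Prf1, which encodes the pore-forming perforin, read 5.54 to 5.84 across the culture arrays, against 5.93, 6.12 and 5.94 in eWAT. It fell with differences of -0.33 in ES, -0.28 in PMEF and -0.37 in 3T3-L1 adipocytes. In PMEF adipocytes the Prf1 call was lost without PMEF array 1 (limma adjusted p = 0.0537) or eWAT array 2 (0.0719), and in 3T3-L1 adipocytes it was lost after median centring (0.116) or quantile normalization (0.081). All 4 granule genes were lower in each model.

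NK receptor genes were low in every culture. Ncr1 encodes NKp46, an activating receptor that in mice is largely restricted to NK cells and related innate lymphoid cells. It read 3.65, 3.55 and 3.85 in ES adipocytes, 3.69, 3.95 and 3.84 in PMEF adipocytes and 3.92, 3.88 and 3.71 in 3T3-L1 adipocytes, against 5.65, 5.53 and 5.60 in eWAT. The groups did not overlap, and the difference from eWAT was -1.91 ± 0.10 in ES, -1.77 ± 0.10 in PMEF and -1.76 ± 0.10 in 3T3-L1 adipocytes (limma adjusted p = 2.21e-09, 3.86e-09 and 2.67e-09). Klrd1 (CD94), a lectin-like receptor chain shared by inhibitory and activating NK receptors, was at 3.93, 3.77 and 3.67 in ES adipocytes, 3.62, 3.86 and 4.04 in PMEF adipocytes and 3.78, 4.14 and 4.01 in 3T3-L1 adipocytes, against 4.96, 5.47 and 5.56 in eWAT. Klrk1 (NKG2D), which recognises stress-induced ligands on other cells, was at 3.52, 3.23 and 3.18 in ES adipocytes, 3.41, 3.39 and 3.53 in PMEF adipocytes and 3.42, 3.21 and 3.33 in 3T3-L1 adipocytes, against 4.29, 4.76 and 4.93 in eWAT. In both genes eWAT array 1 was the lowest of the tissue arrays and still above all cultures. Klrd1 fell, with differences of -1.54 in ES, -1.49 in PMEF and -1.35 in 3T3-L1 adipocytes, and so did Klrk1, with -1.35 in ES, -1.22 in PMEF and -1.34 in 3T3-L1 adipocytes. Both belong to gene families with close relatives, and cross-hybridisation between relatives was not tested.

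**Figure D1:**
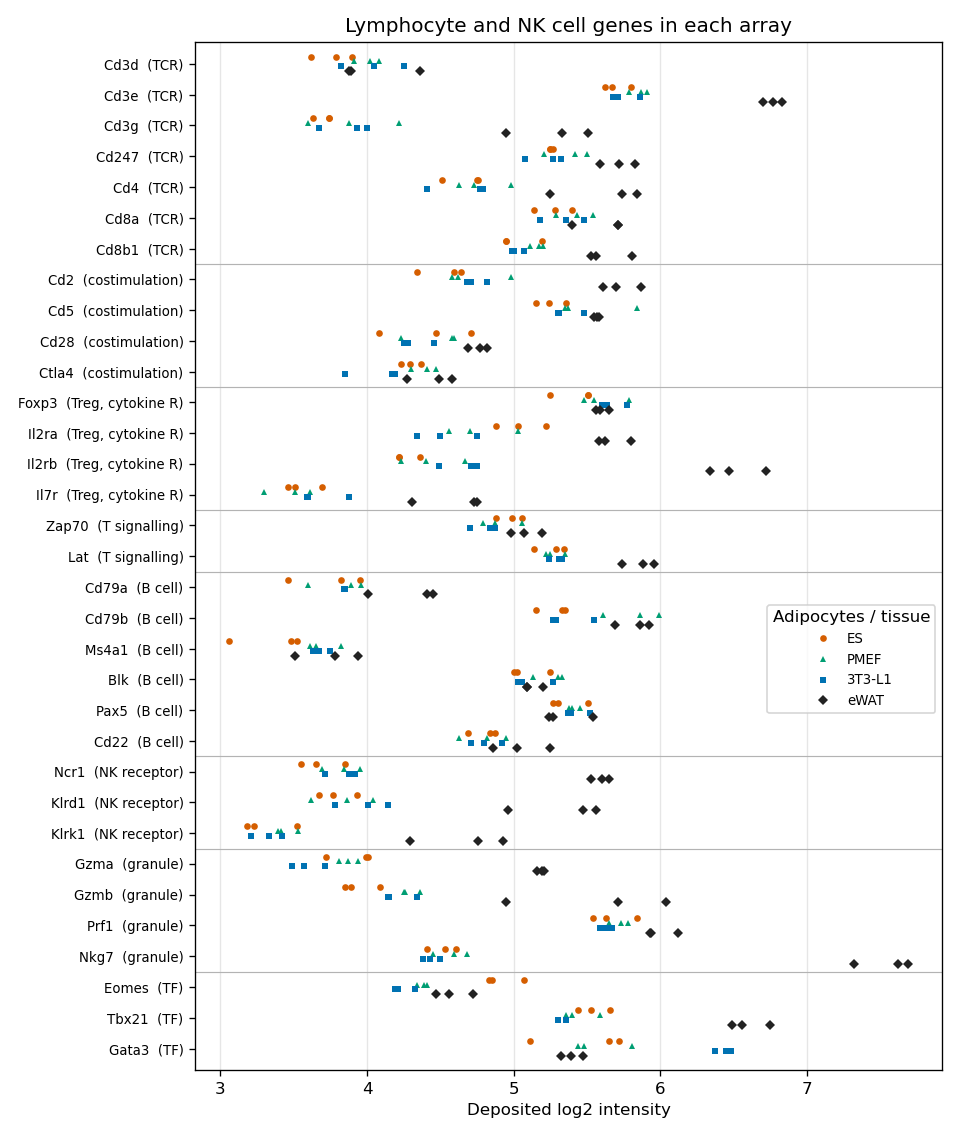
Deposited log2 intensity (horizontal axis) of the 33 genes in each of the 12 arrays. Each gene has 1 row with 3 points per group, ordered from top to bottom as ES, PMEF, 3T3-L1 and eWAT, and grey lines separate the roles. The eWAT points lie to the right of all others for Nkg7, Ncr1, Il2rb, Gzma and Cd3e, whereas Pax5, Blk and Cd3d overlap across groups. Gata3 is farthest right in 3T3-L1 adipocytes.

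Tbx21 (T-bet) and Eomes are the T-box factors that direct NK cell and cytotoxic T cell development. Tbx21 read 5.53, 5.44 and 5.66 in ES adipocytes, 5.36, 5.40 and 5.59 in PMEF adipocytes and 5.30, 5.36 and 5.36 in 3T3-L1 adipocytes, against 6.75, 6.49 and 6.56 in eWAT. It fell in each model, at -1.06 ± 0.09 in ES, -1.15 ± 0.09 in PMEF and -1.26 ± 0.09 in 3T3-L1 adipocytes (limma adjusted p = 3.38e-07, 1.4e-07 and 3.54e-08). Eomes did not follow it. Its log2 intensity was 5.07, 4.85 and 4.83 in ES adipocytes, 4.39, 4.34 and 4.41 in PMEF adipocytes and 4.33, 4.19 and 4.21 in 3T3-L1 adipocytes, against 4.47, 4.72 and 4.56 in eWAT. The ES arrays were the highest of all, and Eomes rose in ES adipocytes by 0.34 ± 0.09 (adjusted p = 0.00507) while it fell in 3T3-L1 adipocytes (-0.34 ± 0.09, 0.00445) and was at -0.20 ± 0.09 in PMEF adipocytes, which did not pass (0.0704). In PMEF adipocytes it passed without eWAT array 1 (-0.26, limma adjusted p = 0.0344), and the 3T3-L1 call was lost after median centring (0.21). Eomes is also a factor of early embryonic mesoderm and endoderm. All its readings, those in ES adipocytes included, were below the 95th percentile of the olfactory and vomeronasal receptor probe sets described below. Whether its differences reflect expression was not tested.

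Receptors for lymphocyte growth factors fell as well. Il2rb, the chain shared by the receptors for IL-2 and IL-15, is carried by NK cells and by regulatory and memory T cells. It read 4.22, 4.22 and 4.36 in ES adipocytes, 4.23, 4.40 and 4.67 in PMEF adipocytes and 4.71, 4.49 and 4.75 in 3T3-L1 adipocytes, against 6.34, 6.47 and 6.72 in eWAT. Tissue arrays stood apart from all cultures, and the difference was -2.24 ± 0.12 in ES, -2.07 ± 0.12 in PMEF and -1.86 ± 0.12 in 3T3-L1 adipocytes (limma adjusted p = 4.76e-09, 8.47e-09 and 1.69e-08). Il2ra (CD25), the high-affinity IL-2 receptor chain of regulatory and activated T cells, was at 5.03, 4.88 and 5.22 in ES adipocytes, 4.70, 4.56 and 5.03 in PMEF adipocytes and 4.50, 4.75 and 4.34 in 3T3-L1 adipocytes, against 5.58, 5.80 and 5.62 in eWAT. It fell in all 3 models, at -0.62 ± 0.13 in ES, -0.91 ± 0.13 in PMEF and -1.14 ± 0.13 in 3T3-L1 adipocytes (limma adjusted p = 0.00145, 7.42e-05 and 5.92e-06). Il7r, the receptor chain for the T cell survival factor IL-7, was at 3.69, 3.51 and 3.46 in ES adipocytes, 3.61, 3.51 and 3.30 in PMEF adipocytes and 3.59, 3.60 and 3.88 in 3T3-L1 adipocytes, against 4.31, 4.73 and 4.75 in eWAT. It fell as well, with -1.04 in ES, -1.12 in PMEF and -0.91 in 3T3-L1 adipocytes. Foxp3, the defining factor of regulatory T cells, read 5.51, 5.25 and 5.51 in ES adipocytes, 5.55, 5.48 and 5.79 in PMEF adipocytes and 5.77, 5.64 and 5.60 in 3T3-L1 adipocytes, against 5.56, 5.59 and 5.65 in eWAT. The ES arrays lay below all eWAT arrays, PMEF and 3T3-L1 arrays overlapped them, and none of its differences, -0.18 in ES, 0.00 in PMEF and 0.07 in 3T3-L1 adipocytes, passed the test (limma adjusted p = 0.152, 0.981 and 0.574).

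T cell receptor chains did not move alike. Cd3e, a signalling chain of the receptor complex, read 5.80, 5.67 and 5.62 in ES adipocytes, 5.79, 5.91 and 5.87 in PMEF adipocytes and 5.86, 5.68 and 5.71 in 3T3-L1 adipocytes, against 6.83, 6.77 and 6.70 in eWAT. It fell by 0.91 or more in each model, with -1.07 ± 0.08 in ES, -0.91 ± 0.08 in PMEF and -1.02 ± 0.08 in 3T3-L1 adipocytes (limma adjusted p = 6.68e-08, 2.92e-07 and 6.39e-08). Cd3g, a second chain of the complex, read 3.63, 3.74 and 3.74 in ES adipocytes, 3.60, 3.88 and 4.22 in PMEF adipocytes and 4.0, 3.67 and 3.93 in 3T3-L1 adipocytes, against 4.95, 5.51 and 5.33 in eWAT, and its differences were -1.56 ± 0.16 in ES, -1.37 ± 0.16 in PMEF and -1.40 ± 0.16 in 3T3-L1 adipocytes (limma adjusted p = 2.22e-06, 8.35e-06 and 4.45e-06). For both chains the tissue arrays lay above every culture array. Cd3d, whose product sits in the same complex and whose gene adjoins Cd3g, was at 3.79, 3.90 and 3.62 in ES adipocytes, 4.08, 3.91 and 4.02 in PMEF adipocytes and 4.25, 4.05 and 3.82 in 3T3-L1 adipocytes, against 3.89, 3.88 and 4.36 in eWAT. Its groups overlapped, and differences of -0.27 in ES, -0.04 in PMEF and 0.00 in 3T3-L1 adipocytes did not pass (limma adjusted p = 0.12, 0.822 and 0.992). Cd3d read low in eWAT too, below the 95th percentile (5.20 to 5.30) of the olfactory and vomeronasal receptor probe sets described below. Whether its probe set can show a fall was not tested. The promoter windows of Cd3g and Cd3d, printed above, both hold a T-box match. Cd247, the zeta chain, fell by little, with -0.45 in ES, -0.33 in PMEF and -0.49 in 3T3-L1 adipocytes.

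Of the coreceptors, Cd4 of helper T cells read 4.75, 4.51 and 4.76 in ES adipocytes, 4.63, 4.73 and 4.98 in PMEF adipocytes and 4.79, 4.77 and 4.41 in 3T3-L1 adipocytes, against 5.25, 5.74 and 5.84 in eWAT. All its tissue arrays were above all cultures, with eWAT array 1 the lowest of them, and it fell at -0.94 ± 0.15 in ES, -0.83 ± 0.15 in PMEF and -0.95 ± 0.15 in 3T3-L1 adipocytes (limma adjusted p = 0.000176, 0.000536 and 0.000118). Cd8a and Cd8b1 encode the chains of the killer T cell coreceptor. Cd8b1 fell in each model, at -0.60 in ES, -0.47 in PMEF and -0.61 in 3T3-L1 adipocytes. Cd8a fell in ES adipocytes (-0.33 ± 0.11, limma adjusted p = 0.0231) and did not pass in PMEF or 3T3-L1 adipocytes (-0.19 and -0.27, limma adjusted p = 0.191 and 0.059). In ES adipocytes the Cd8a call was lost when any of ES arrays 2 and 3 or eWAT arrays 2 and 3 was left out (limma adjusted p = 0.0508 to 0.0979). Without eWAT array 1, Cd8a passed in PMEF (-0.29, 0.0448) and 3T3-L1 adipocytes (-0.37, 0.0112).

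Cd2, an adhesion molecule of T cells and NK cells, read 4.34, 4.64 and 4.59 in ES adipocytes, 4.58, 4.62 and 4.98 in PMEF adipocytes and 4.82, 4.68 and 4.71 in 3T3-L1 adipocytes, against 5.61, 5.70 and 5.87 in eWAT. It fell in all models without overlap, at -1.21 ± 0.11 in ES, -1.0 ± 0.11 in PMEF and -0.99 ± 0.11 in 3T3-L1 adipocytes (limma adjusted p = 1.1e-06, 6.9e-06 and 4.99e-06). The other genes of this role moved less. Cd28, the main costimulatory receptor, fell in 3T3-L1 adipocytes (-0.43 ± 0.14, limma adjusted p = 0.0192) and did not pass in ES or PMEF adipocytes (-0.34 and -0.29). Its neighbour Ctla4, the inhibitory counterpart of Cd28, fell in 3T3-L1 adipocytes too (-0.38 ± 0.10, 0.0068) and was at -0.15 and -0.06 in ES and PMEF adipocytes. Cd5, a damper of T cell receptor signals, fell in ES adipocytes (-0.32 ± 0.12, 0.0351), and that call was lost without any 1 of ES arrays 2 and 3 and the 3 eWAT arrays (limma adjusted p = 0.0665 to 0.117). The Cd28 call in 3T3-L1 adipocytes was lost without 3T3-L1 array 2 (0.0566), 3T3-L1 array 3 (0.0634) or eWAT array 3 (0.0596), and in ES adipocytes Cd28 passed without ES array 3 (-0.49, 0.0104). In the signalling role, the adaptor Lat fell in each model, at -0.60 in ES, -0.59 in PMEF and -0.57 in 3T3-L1 adipocytes, and the kinase Zap70 passed in 3T3-L1 adipocytes (-0.28 ± 0.09, 0.0195), at -0.10 and -0.17 in ES and PMEF adipocytes. The Zap70 call was lost without 3T3-L1 array 1 (limma adjusted p = 0.0828) or eWAT array 3 (0.0841), and in PMEF adipocytes it passed without PMEF array 3 (0.0438). After median centring, the 3T3-L1 calls of Cd28, Ctla4 and Zap70 were lost (0.181, 0.16 and 0.519).

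Of the 6 B cell genes, 3 fell in ES, 1 in PMEF and 2 in 3T3-L1 adipocytes (50%, 16.7% and 33.3%, beside 20.9%, 21.6% and 22.5% of all genes). Cd79a, one of the signalling chains of the B cell receptor, read 3.82, 3.46 and 3.95 in ES adipocytes, 3.89, 3.60 and 3.96 in PMEF adipocytes and 3.85, 3.85 and 3.84 in 3T3-L1 adipocytes, against 4.01, 4.41 and 4.45 in eWAT. It fell at -0.55 ± 0.14 in ES, -0.48 ± 0.14 in PMEF and -0.45 ± 0.14 in 3T3-L1 adipocytes (limma adjusted p = 0.00474, 0.0129 and 0.0155). The PMEF call of Cd79a did not hold when eWAT array 2 (0.0543), eWAT array 3 (0.0579) or PMEF array 2 (0.0656) was left out, and the 3T3-L1 call without eWAT array 2 (0.0639) or 3 (0.0689). Its partner Cd79b read 5.15, 5.35 and 5.33 in ES adipocytes, 5.61, 5.86 and 5.99 in PMEF adipocytes and 5.55, 5.27 and 5.29 in 3T3-L1 adipocytes, against 5.69, 5.92 and 5.86 in eWAT, and PMEF adipocytes overlapped eWAT. Cd79b fell in ES and 3T3-L1 adipocytes (-0.55 ± 0.11 and -0.45 ± 0.11) and was at 0.00 ± 0.11 in PMEF adipocytes. Ms4a1 (CD20) passed in ES adipocytes (-0.39 ± 0.13, limma adjusted p = 0.0222) although its arrays overlapped those of eWAT, and this call was lost without ES array 1 (0.113), eWAT array 1 (0.0926) or eWAT array 3 (0.0611). The B cell kinase Blk, the B cell factor Pax5 and the inhibitory receptor Cd22 passed in no model, with differences between -0.24 and 0.13. Without eWAT array 1, Cd22 passed at -0.34 in ES, -0.34 in PMEF and -0.33 in 3T3-L1 adipocytes (limma adjusted p = 0.0229, 0.0251 and 0.0236). It also passed in PMEF adipocytes without PMEF array 2 (0.0493). Blk read 5.02, 5.25 and 5.0 in ES adipocytes, 5.13, 5.33 and 5.30 in PMEF adipocytes and 5.06, 5.27 and 5.03 in 3T3-L1 adipocytes, against 5.09, 5.09 and 5.20 in eWAT. Pax5 read 5.30, 5.27 and 5.51 in ES adipocytes, 5.40, 5.45 and 5.38 in PMEF adipocytes and 5.52, 5.37 and 5.39 in 3T3-L1 adipocytes, against 5.54, 5.27 and 5.24 in eWAT. The groups overlapped for both genes. After median centring of the arrays, however, Foxp3 and Pax5 were higher in 3T3-L1 adipocytes (0.28 and 0.29, limma adjusted p = 0.0195 and 0.0149), and the Cd79a and Cd79b calls there were lost (0.153 and 0.0602). Centring split the 33 genes into 3 higher and 17 lower in 3T3-L1 adipocytes and moved the median of all genes to 0.256. With quantile normalization Foxp3 and Pax5 were higher there too (0.26 and 0.24, limma adjusted p = 0.023 and 0.0467), with 3 genes higher and 22 lower. It moved the median of all genes to 0.116. The calls of Zap70 in 3T3-L1 (0.0735) and Ms4a1 in ES adipocytes (0.0897) were lost under it. The share of all genes called was not read out after centring or quantile normalization.

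**Figure D2:**
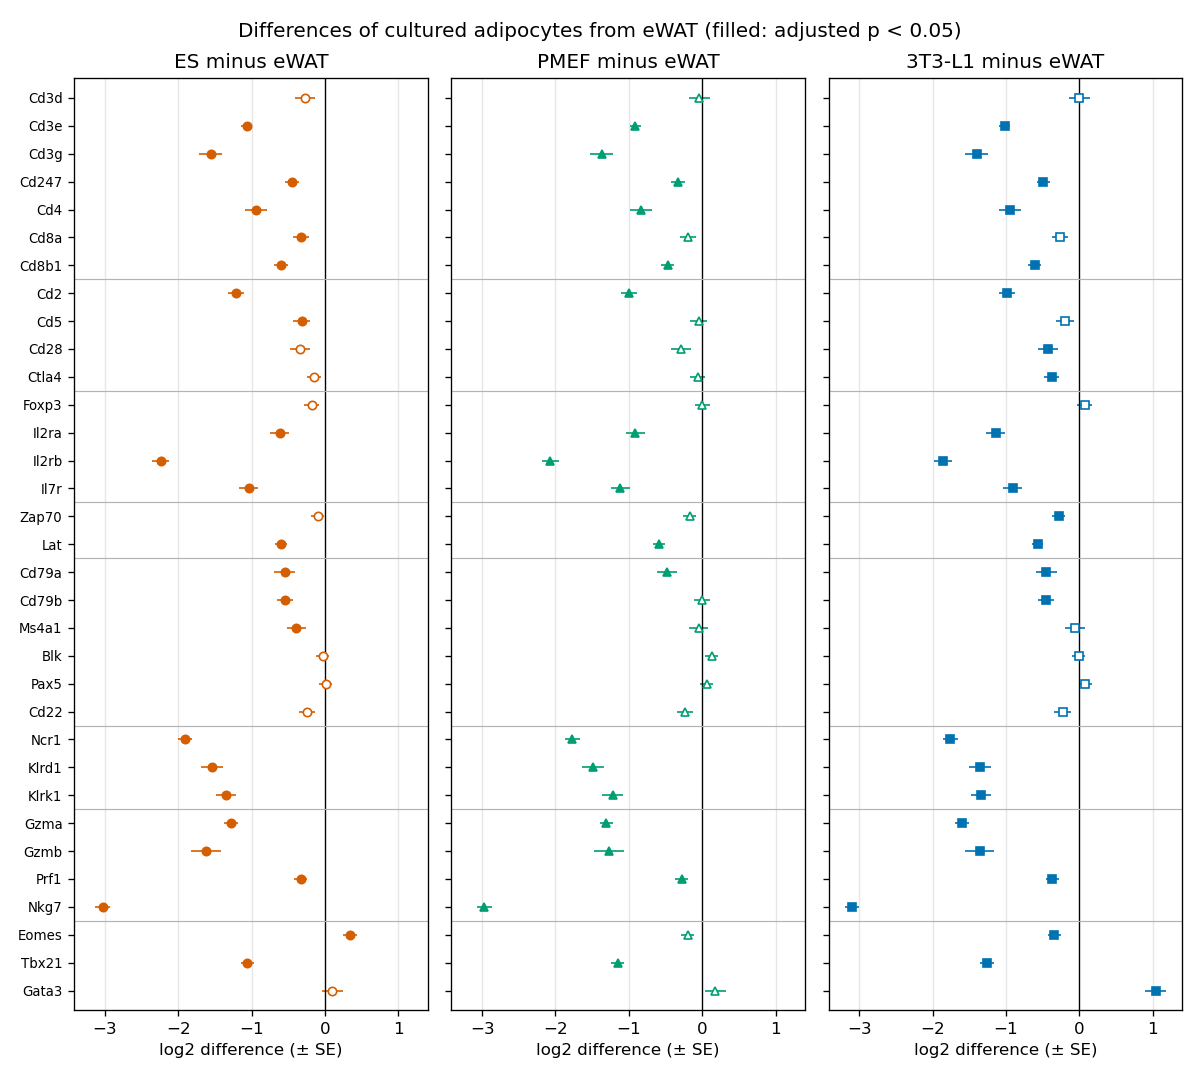
Log2 difference from eWAT (horizontal axis, bars are standard errors) of each gene in ES, PMEF and 3T3-L1 adipocytes, from 1 limma fit with 3 arrays per group. Filled points passed an adjusted p of 0.05. Nkg7 lies near -3 in each panel, NK receptor genes lie between -1.91 and -1.22, B cell genes lie between -0.55 and 0.13, and Gata3 lies to the right at 1.04 in 3T3-L1 adipocytes.

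Gata3 was the 1 gene of the 33 at least 2-fold higher in 3T3-L1 adipocytes (6.05% of all genes), and none was in ES or PMEF adipocytes. It directs helper T cell and innate lymphoid development, and outside the immune system it holds back fat cell differentiation in preadipocytes. Gata3 read 5.11, 5.72 and 5.65 in ES adipocytes, 5.48, 5.44 and 5.81 in PMEF adipocytes and 6.45, 6.48 and 6.37 in 3T3-L1 adipocytes, against 5.32, 5.47 and 5.39 in eWAT. The 3T3-L1 arrays stood above all others, and ES array 1 was the lowest of all 12 arrays. Gata3 rose in 3T3-L1 adipocytes by 1.04 ± 0.14 (2.05-fold, limma adjusted p = 2.12e-05), and was at 0.10 ± 0.14 in ES and 0.18 ± 0.14 in PMEF adipocytes, which did not pass (0.601 and 0.304). Without ES array 1 the ES difference was 0.29 and passed (0.0441).

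The yardstick for low readings was the set of 1210 probe sets of olfactory and vomeronasal receptor genes, which fat is not known to express at a high level. Their median was 3.48 to 3.74 and their 95th percentile 5.04 to 5.35 over the 12 arrays. On all 3 arrays of a group, 11 of the 33 genes lay above that percentile in ES, 10 in PMEF and 10 in 3T3-L1 adipocytes, against 17 (51.5%) in eWAT. Of all genes 69.1% did in ES, 66.9% in PMEF and 64.9% in 3T3-L1 adipocytes, against 65.6% in eWAT. Cd4, Cd8b1, Cd2, Il2ra, Il2rb, Ncr1 and Nkg7 lay above it in eWAT and in no model. Cd3e, Cd8a, Cd5, Foxp3, Cd79b, Prf1, Tbx21 and Gata3 read above it in all 4 groups, and Pax5 in the 3 models alone. A reading above it is no proof of transcription, since probe sets differ in their own floor. Where a culture reads near the floor, the size of a fall is only as exact as that floor. Of the genes whose arrays are given here, Cd3d, Eomes, Klrk1, Il7r and Cd79a read below that percentile on every array, eWAT included. The falls of Klrk1, Il7r and Cd79a thus lie below it in tissue and cultures alike. How exactly their probe sets size a fall was not tested.

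Between the models few of these genes differed. At most 11 of the 33 lay above the receptor 95th percentile on all 3 arrays of a model, and whether the others could show a difference was not tested. Of 33, 3 were higher and 1 lower in PMEF than in 3T3-L1 adipocytes (22.3% and 27.8% of all genes), 3 higher and 2 lower in ES than in 3T3-L1 adipocytes (20.4% and 23.0%), and 1 higher and 2 lower in ES than in PMEF adipocytes (23.6% and 19.0%). Eomes was higher in ES adipocytes than in PMEF and 3T3-L1 adipocytes, by 0.54 ± 0.09 and 0.67 ± 0.09 (limma adjusted p = 0.000176 and 2.22e-05). All these Eomes readings were below the 95th percentile of the receptor probe sets. Gata3 was lower in ES and PMEF than in 3T3-L1 adipocytes, at -0.94 ± 0.14 and -0.85 ± 0.14 (limma adjusted p = 8.13e-05 and 0.000139).

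The other differences were of 0.54 or less on the log2 scale. Il2ra was higher in ES than in 3T3-L1 adipocytes by 0.52 ± 0.13 (limma adjusted p = 0.00629) and Il2rb lower, at -0.38 ± 0.12 (0.0209). The Il2rb call was lost without any 1 of ES arrays 1 and 2 and 3T3-L1 arrays 1 and 3 (limma adjusted p = 0.0634 to 0.0794). Gzma was higher in ES and PMEF than in 3T3-L1 adipocytes, by 0.32 ± 0.09 and 0.28 ± 0.09, at levels of 3.49 to 4.01 near the median of the receptor probe sets. The PMEF call of Gzma was lost without PMEF array 3 (limma adjusted p = 0.0559) or 3T3-L1 array 2 (0.0702). Cd79b was lower in ES than in PMEF adipocytes (-0.54 ± 0.11, 0.00121) and higher in PMEF than in 3T3-L1 adipocytes (0.45 ± 0.11, 0.00366). Ctla4 was higher in PMEF than in 3T3-L1 adipocytes by 0.32 ± 0.10, a call lost without 3T3-L1 array 1 (limma adjusted p = 0.0966) or PMEF array 2 (0.0711). Ms4a1 was lower in ES than in PMEF adipocytes at -0.34 ± 0.13. Its adjusted p of 0.0484 in limma passed narrowly and was lost when any of ES array 1 or the PMEF arrays was left out (0.0604 to 0.229). Several of these calls changed with the scaling of the arrays. The median gene read 6.11 to 6.12 in 3T3-L1 adipocytes and 6.31 to 6.35 in the 9 arrays of the other groups. With each array centred on its median, 1 gene was higher and 16 lower in ES than in 3T3-L1 adipocytes, and 0 higher and 6 lower in PMEF than in 3T3-L1 adipocytes, with the median of all genes moved to -0.226 and -0.208. With quantile normalization the splits were 3 higher and 5 lower, and 2 higher and 3 lower. Gata3 and Eomes kept their calls under both settings, whereas the calls of Ctla4, Cd79b, Gzma and Il2ra against 3T3-L1 adipocytes were lost after centring. Between ES and PMEF adipocytes 1 gene was higher and 1 lower after centring, and 2 higher and 1 lower after quantile normalization. The share of all genes called under these settings was not read out, so these splits cannot be set against it.

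**Figure D3:**
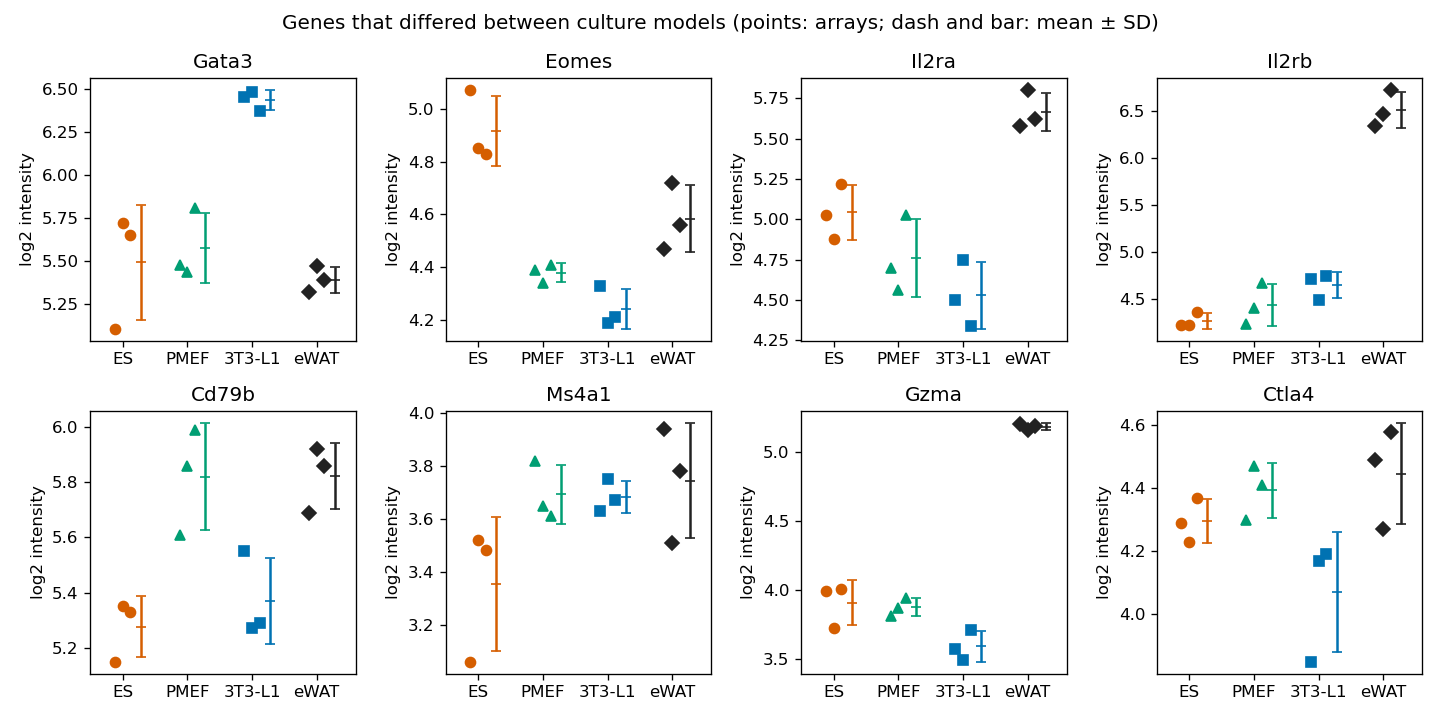
Log2 intensity (vertical axis, a separate range for each gene) of the 8 genes called between any pair of culture models, with 1 point per array and the mean ± SD of 3 arrays beside them. Gata3 is highest in 3T3-L1 adipocytes at 6.37 to 6.48, Eomes is highest in ES adipocytes at 4.83 to 5.07, and for Il2rb and Gzma all cultures lie far below eWAT.

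Other lymphocyte genes, from lists chosen beside the members, were read too. Of 18 measured NK and innate lymphoid genes, 14 fell in ES, 12 in PMEF and 13 in 3T3-L1 adipocytes, with medians of -0.65, -0.61 and -0.67. These falls were 77.8%, 66.7% and 72.2% of the list, beside 20.9%, 21.6% and 22.5% of all genes. In the same order 1, 1 and 0 of the list rose, beside 28.8%, 24.7% and 30.8% of all genes. Klrc1 (NKG2A), the inhibitory partner of Klrd1, was at -1.57 in ES, -1.46 in PMEF and -1.51 in 3T3-L1 adipocytes. Zbtb16 (PLZF), a factor of innate-like lymphocytes that fat cells and other tissues express too, read 8.45 to 9.09 in the cultures and 9.97, 10.73 and 10.96 in eWAT. Of 24 other T cell genes 16, 13 and 16 fell (66.7%, 54.2% and 66.7%), with medians of -0.53, -0.34 and -0.45, led by the chemokine Ccl5 at -2.39 in ES, -2.33 in PMEF and -2.17 in 3T3-L1 adipocytes. In this list 1 gene rose in ES, 3 in PMEF and 1 in 3T3-L1 adipocytes. Thy1, which marks T cells and also fibroblasts, rose by 3.26 ± 0.06 in PMEF adipocytes. Of 17 other B cell genes 7, 5 and 7 fell (41.2%, 29.4% and 41.2%, beside 20.9%, 21.6% and 22.5% of all genes), with medians of -0.25, -0.10 and -0.18. In the same order 10, 12 and 10 of this list did not pass. Among them all the adaptor Bank1 had the largest fall, at -2.88 in ES, -2.56 in PMEF and -2.75 in 3T3-L1 adipocytes. The next largest falls were those of Cd72 and the kinase Btk. Cd72 was at -1.80 in ES, -1.27 in PMEF and -1.74 in 3T3-L1 adipocytes. Btk was at -1.55 in ES, -1.29 in PMEF and -1.37 in 3T3-L1 adipocytes. Btk is also used by myeloid cells, and which cells the falls of these genes come from was not tested.

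Signals that hold or call lymphocytes were also read. Many of them are made by stroma and myeloid cells but not all, as with Il2 (-0.22 in ES adipocytes). Of 23 measured ligands and partners, 5 rose and 14 fell in ES, 6 rose and 11 fell in PMEF, and 4 rose and 17 fell in 3T3-L1 adipocytes. The rises were 21.7%, 26.1% and 17.4% of the list, beside 28.8%, 24.7% and 30.8% of all genes, and the falls 60.9%, 47.8% and 73.9%, beside 20.9%, 21.6% and 22.5%. Il15, the factor that keeps NK cells alive and acts through Il2rb, was at -1.73 in ES, -1.99 in PMEF and -2.74 in 3T3-L1 adipocytes. Cxcl9, a chemokine that draws activated T cells and NK cells, was at -3.75 in ES, -4.18 in PMEF and -4.98 in 3T3-L1 adipocytes. Cxcl13, which draws B cells, fell in PMEF (-2.93) and 3T3-L1 adipocytes (-4.38) and was at -0.45 ± 0.52 in ES adipocytes, which did not pass (limma adjusted p = 0.512). H60b, a ligand of the NK receptor Klrk1, read 5.41, 5.29 and 5.21 in ES adipocytes, 4.66, 4.11 and 4.26 in PMEF adipocytes and 7.22, 7.35 and 7.57 in 3T3-L1 adipocytes, against 4.70, 4.33 and 4.66 in eWAT, and it rose in 3T3-L1 adipocytes by 2.82 ± 0.14. Pvr, a ligand of the NK and T cell receptor Cd226, rose in ES (1.16) and 3T3-L1 adipocytes (1.96) and fell in PMEF adipocytes (-0.27). Cd80, a ligand of Cd28 and Ctla4, rose in PMEF adipocytes (1.96) and fell in the other models (-1.04 in ES, -0.99 in 3T3-L1).

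Most markers of other blood cells and of endothelium fell beside the lymphocyte genes. Of 15 macrophage markers, 15 fell in ES, 14 in PMEF and 13 in 3T3-L1 adipocytes. Cd68, of phagocyte lysosomes, rose by 0.93 in 3T3-L1 adipocytes. The median differences were -3.88, -3.42 and -3.92, and log2 intensities have no true 0. The summed macrophage level was 9.71 to 9.79 in ES, 10.1 to 10.3 in PMEF and 10.96 to 11.11 in 3T3-L1 adipocytes, against 12.89 to 13.85 in eWAT. A sum weighs bright genes most, and Cd68 read 10.42 in 3T3-L1, 8.66 in ES and 7.11 in PMEF adipocytes. Of the 15 markers, 0 were higher and 3 lower in ES than in 3T3-L1 adipocytes (20.4% and 23.0% of all genes). In PMEF adipocytes 8 were higher and 2 lower than in 3T3-L1 adipocytes (22.3% and 27.8%). Of 19 pan-leukocyte genes 19, 18 and 18 fell, with a summed level of 9.87 to 11 over the culture arrays, against 11.92 to 12.78 in eWAT. The pan-leukocyte gene Arhgdib rose in PMEF (0.80) and 3T3-L1 adipocytes (0.39). It read 8.59 in ES, 10.23 in PMEF and 9.81 in 3T3-L1 adipocytes and weighed most in their pan-leukocyte sums. Of 10 mast cell markers 8 fell in each model, while the tryptase Tpsab1 rose by 2.10 in ES adipocytes. In each model 10 of 10 dendritic cell markers and 10 of 10 endothelial markers fell. Of 10 fibroblast markers 2 rose and 4 fell in ES, 10 rose in PMEF, and 1 rose and 9 fell in 3T3-L1 adipocytes, with medians of -0.11, 1.72 and -0.95. Of all genes 20.9%, 21.6% and 22.5% fell and 28.8%, 24.7% and 30.8% rose in ES, PMEF and 3T3-L1 adipocytes. The part of these cells in the lymphocyte gene differences was not tested. The adipocyte list, a check of the labels, had a summed level of 15.14 to 15.17 in ES, 14.68 to 14.70 in PMEF and 14.49 to 14.58 in 3T3-L1 adipocytes, against 15.36 to 15.40 in eWAT.

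The tissue arrays were not alike. In 20 of the 33 genes eWAT array 1 was the lowest of the 3, as it was for the summed macrophage, pan-leukocyte and mast cell lists. How often array 1 was the lowest over all genes was not read out, so the 20 cannot be called particular to these genes. The summed macrophage level was 12.89 in array 1 and 13.53 and 13.85 in arrays 2 and 3, and the mast cell level was 9.69, 10.95 and 10.80. The endothelial level was highest in array 1, at 13.09 against 12.85 and 12.76. The summed NK receptor level was 6.65, 6.88 and 6.98 in arrays 1, 2 and 3, and the granule level 8.17, 8.56 and 8.44. Gzma, Ncr1, Cd3e and Tbx21 did not share this order. Without eWAT array 1, 23 of the 33 genes differed from eWAT in ES, 22 in PMEF and 27 in 3T3-L1 adipocytes. The share of all genes called without it was not read out.

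**Figure D4:**
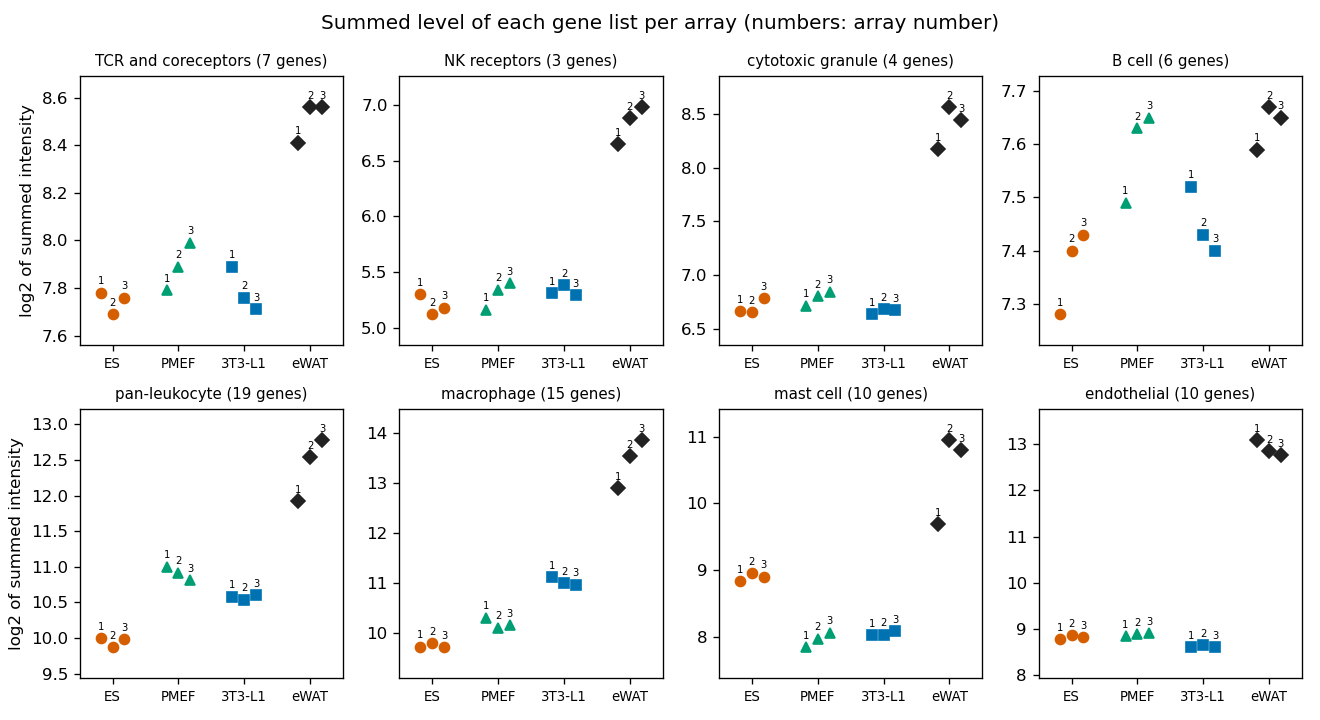
Log2 of the summed linear intensities (vertical axis, a separate range for each list) of 4 lymphocyte lists and of the pan-leukocyte, macrophage, mast cell and endothelial lists in each array, with the array number above each point. For NK receptors and granule genes eWAT lies at 6.65 to 6.98 and 8.17 to 8.56, above every culture array. B cell sums in PMEF adipocytes (7.49 to 7.65) overlap those in eWAT (7.59 to 7.67).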

How the data were processed

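Per the labels' protocols, TRIzol extracts were made into biotin-labelled single-stranded cDNA for Affymetrix arrays, starting from 300 ng RNA and using Ambion's WT Expression kit. The authors deposited 35556 probe sets per array as log2 intensities. The sources used here name no normalization method. Base 2 was read from the range, 1.11 to 13.48. Values were used as deposited.

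Probe sets with 1 gene symbol (21789) were kept, and 21698 of them matched RefSeq by Entrez ID. Probe sets with several symbols (1621) or none (12146) were left out. The brightest stood for each of 19938 genes. One limma 3.58.1 fit of 4 groups (R 4.3.3, 8 residual and 4.88 prior degrees of freedom) gave 6 two-sided comparisons with Benjamini-Hochberg adjustment over all genes. The code was tested on simulated data. Detection calls were not used, and 3 arrays per group limit the precision.

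Member genes and lists were chosen with earlier results of these data known. All members are named. Of each other list, the 3 largest rises and falls among called genes of a comparison could be named, and Cd68 and Ciita were added after their values were seen. A summed level is log2 of the list's summed linear intensities. Alternatives were quantile normalization, median centring, averaging the probe sets of a gene, dropping the dimmest 33.3% of genes, fitting only the arrays compared, the replicate number as a block, a trended and robust variance, array weights, and leaving out each array.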

Additional observations from a re-analysis of the deposited data

How the results depend on the processing

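Of the 33 genes, 24 differed from eWAT in ES, 19 in PMEF and 25 in 3T3-L1 adipocytes, and 4 differed between PMEF and 3T3-L1, 5 between ES and 3T3-L1 and 3 between ES and PMEF adipocytes. Of all 19938 genes 9911, 9225 and 10628 differed from eWAT in ES, PMEF and 3T3-L1 adipocytes. Between models 9985 did for PMEF against 3T3-L1, 8651 for ES against 3T3-L1 and 8501 for ES against PMEF adipocytes. Leaving out 1 array at a time gave 21 to 24 of the 33 genes for ES, 17 to 22 for PMEF and 22 to 27 for 3T3-L1 adipocytes against eWAT. It gave 3 to 5 for PMEF against 3T3-L1, 4 to 6 for ES against 3T3-L1 and 2 to 3 for ES against PMEF adipocytes. Leaving out the dimmest genes left 11 of the 33 to test, of which 8, 5 and 8 differed from eWAT in ES, PMEF and 3T3-L1 adipocytes. Between models it gave 2 for PMEF against 3T3-L1, 2 for ES against 3T3-L1 and 1 for ES against PMEF adipocytes. The share of all genes was not read out here, nor for the other settings except the replicate block. Between ES and 3T3-L1 adipocytes quantile normalization gave 8, median centring 17 and array weights 8, and between ES and PMEF adipocytes array weights gave 5. The cause was not tested. Averaging the probe sets of a gene could not change a member's values, since each had 1 probe set. Over all alternatives, this one included, 2516 values of single members kept their side of the threshold, 58 lost and 66 gained a call. In 122 the sign turned, 27 of them after median centring and 23 after quantile normalization, and 0 of the 122 passed the test as reported or under the alternative. Of the other lists, Ciita, a regulator of antigen presentation, was 0.22 higher in PMEF than in 3T3-L1 adipocytes and at 0.00, with the sign turned, after median centring (limma adjusted p = 0.992).

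Arrays that share a replicate number did not deviate together, with correlations between -0.14 and 0.11, so the numbers were not taken to pair samples. With the replicate block, 24, 19 and 25 of the 33 genes differed from eWAT in ES, PMEF and 3T3-L1 adipocytes. It gave 4 between PMEF and 3T3-L1, 6 between ES and 3T3-L1 and 2 between ES and PMEF adipocytes. Of all genes 9739, 9009 and 10519 differed from eWAT with it, and 9832, 8435 and 8287 between models in the same order. Readings near the level of the receptor probe sets limit how exactly a fall can be sized.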
